A study of Mus musculus with 4 samples.

Results

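Mitosis and spindle genes were measured in neural stem cells of mouse embryos, either wild type or with a knockout (KO) of Olig1. They are the genes that drive a cell from the onset of mitosis to its division. The list held 48 genes, and its members were all probe sets that the platform annotation assigns to a single listed gene. This found 86 probe sets for 46 genes, of 22690 probe sets and 12393 genes on the array. No probe set was assigned to Ccnb1 (cyclin B1) or Cdca8 (borealin) in the annotation used, and these 2 genes were not analysed here. Of the 46 genes, 22 had 1 probe set and 24 had more.

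The samples were 4 Affymetrix arrays, 1 per sample, with 1 labelled wild type and 3 labelled Olig1 KO, all on the C57/Bl6 background. The KO arrays are called KO1, KO2 and KO3, an order that carries no meaning. The cells came from the ganglionic eminences at embryonic day 14.5, which are the germinal zones of the ventral forebrain, and were grown without serum in medium with EGF. Olig1 encodes a transcription factor of the oligodendrocyte lineage. The labels name no construct for the Olig1 allele, and nothing in them tells whether separate embryos or cultures stand behind the KO samples. The p-values therefore describe the scatter of the 3 KO samples alone, part of which may be technical. That scatter also takes in the differences in Xist and Eif2s3y signal between KO arrays given below. Each value is a MAS5 signal, a linear intensity, and the trimmed mean of the values was nearly equal in all 4 arrays as deposited.

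In background terms, a cell enters mitosis when CDK1, bound to A- and B-type cyclins, is switched on by CDC25 phosphatases. Aurora and Polo-like kinases then build the spindle, condensin packs the chromosomes, and the spindle checkpoint holds back the anaphase-promoting complex until every kinetochore is attached. Most of these transcripts peak late in the cell cycle, so in a mixed culture their level largely follows the share of dividing cells. In bulk RNA, fewer dividing cells and less RNA per dividing cell cannot be told apart.

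Late cell cycle genes are known for promoters with CCAAT boxes, bound by NF-Y, and with a cell cycle homology region, commonly TTTGAA and sometimes TTTAAA, through which MuvB complexes act. The RefSeq promoters (GRCm38.p6, 250 bases before to 50 after a gene's start) held 42 entries for 39 of the 46 measured members, some of which overlap because a gene has neighbouring starts. The letters CCAAT, on either strand, were present in 33 of 42 member promoters (78.6%), against 37.4% of all 32851 promoters of that length. TTTGAA, on either strand, was present in 31 of 42 member promoters (73.8%), against 17.9%. TTTAAA, which reads the same on both strands, was present in 8 of 42 member promoters (19.0%), against 13.2%. CCAAT together with TTTGAA or TTTAAA was found in 30 of 42 member promoters (71.4%), against 10.7%. These shares describe letters, not bound sites.

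Cdk1, Top2a, Ube2c, Cdc20 and Kif11 show how these letters lie in members of different roles, and Tacc3, the member with the largest positive difference, shows a promoter without them. Each line gives the 200 bases just before the gene's start, 5′ to 3′ on the gene's strand, with CCAAT boxes and both homology region forms (either strand) in capitals. In Ube2c, 2 of the CCAAT matches overlap, 1 on each strand.
Cdk1, chr10:69352913-69353112 (- strand): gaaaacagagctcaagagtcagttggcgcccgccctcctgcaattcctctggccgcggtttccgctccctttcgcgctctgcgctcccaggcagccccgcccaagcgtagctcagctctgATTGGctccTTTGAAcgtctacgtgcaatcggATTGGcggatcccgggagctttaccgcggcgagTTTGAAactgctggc
Top2a, chr11:99024190-99024389 (- strand): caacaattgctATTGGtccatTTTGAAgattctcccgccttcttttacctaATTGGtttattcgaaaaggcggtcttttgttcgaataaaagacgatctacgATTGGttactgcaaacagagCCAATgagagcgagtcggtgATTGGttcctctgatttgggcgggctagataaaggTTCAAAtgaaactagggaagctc
Ube2c, chr2:164769729-164769928 (+ strand): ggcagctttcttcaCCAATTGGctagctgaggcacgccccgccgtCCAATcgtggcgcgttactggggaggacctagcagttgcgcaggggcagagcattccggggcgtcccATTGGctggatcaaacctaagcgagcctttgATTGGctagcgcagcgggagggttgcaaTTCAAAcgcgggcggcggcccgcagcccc
Cdc20, chr4:118437344-118437543 (- strand): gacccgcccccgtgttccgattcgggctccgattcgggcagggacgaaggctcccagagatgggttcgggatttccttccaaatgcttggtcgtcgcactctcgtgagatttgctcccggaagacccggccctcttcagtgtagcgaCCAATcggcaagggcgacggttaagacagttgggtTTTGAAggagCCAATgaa
Kif11, chr19:37376182-37376381 (+ strand): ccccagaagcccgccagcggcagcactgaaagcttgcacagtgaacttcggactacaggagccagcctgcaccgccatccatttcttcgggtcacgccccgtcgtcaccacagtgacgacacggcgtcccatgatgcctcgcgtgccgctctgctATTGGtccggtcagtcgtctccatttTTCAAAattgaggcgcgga
Tacc3, chr5:33657928-33658127 (+ strand): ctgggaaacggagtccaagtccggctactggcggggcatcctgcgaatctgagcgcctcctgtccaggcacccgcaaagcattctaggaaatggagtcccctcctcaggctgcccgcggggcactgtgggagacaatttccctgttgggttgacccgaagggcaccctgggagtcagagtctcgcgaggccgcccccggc

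All 46 members were above background in all 4 arrays, where background is the highest signal among 27 bacterial control probe sets with no target (30.5 in wild type against 21.3 in KO1, 39.99 in KO2 and 87.8 in KO3). All 46 also passed the filter that kept 7436 genes. The defining genes of neural stem cells were measured in every array, with all 10 of a list that includes Sox2, Nes and Fabp7 above background. Of 8 neuronal markers, 3 were above background in every array, and the summed signal of all 8 was 2187 in wild type against 1684 (KO1), 1095 (KO2) and 1155 (KO3), most of it Map2. Of 4 astrocyte markers, 3 were above background in every array, with a sum over all 4 of 2303 in wild type against 2258 (KO1), 1450.00 (KO2) and 1115 (KO3), most of it S100b in every array but KO3. Of 5 oligodendrocyte lineage markers, 4 were above background in every array, with a sum over all 5 of 4753 in wild type against 5335 (KO1), 3847 (KO2) and 3389 (KO3), most of it Olig2. Of 15 microglial, endothelial, mesenchymal and blood markers measured, only Csf1r was above background in every array. The Olig1 probe set gave 7618 in wild type against 3839.6, 4438 and 8548 in the KO replicates, and since its place relative to the mutated part of the gene was not known, it does not check the genotype labels. Arrays are therefore called by their labels, on which every direction rests.

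Some array features did not follow the genotype label, and others ran with it. Sample titles carry a number for KO2 and KO3 and none for wild type and KO1. Xist was high in wild type (9480.5) and KO1 (8472) and low in KO2 (161) and KO3 (46.5). Eif2s3y, a Y chromosome gene, ran the other way, at 0.608 in wild type against 1.53 (KO1), 654 (KO2) and 1160 (KO3). These 2 genes split the arrays as female and male cells would. In KO2 and KO3 this split cannot be told apart from genotype. Beta-actin's ratio of 3' to 5' signal, which reflects RNA integrity, was 1.11 in wild type against 1.25, 1.30 and 1.82 in the KO replicates, highest in KO3. The same ratio for Gapdh was 0.759 in wild type against 0.794, 1.03 and 0.842, highest in KO2. Both ratios were lowest in wild type, so in these arrays they cannot be told apart from genotype. Probe sets for added control transcripts had a median signal ratio to wild type of 0.898 (KO1), 1.89 (KO2) and 2.75 (KO3). Only KO1 can be set against the wild-type array at a like Xist level.

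No member differed between genotypes by the test. Over all 7436 genes, limma called 0 genes at an adjusted p under 0.05 (0% higher, 0% lower), and 168 genes (2.26%) had an unadjusted p under 0.05 (1.32% higher and 0.941% lower in KO), of which 0 were members (limma adjusted p = 0.99997 for all 46). An exact permutation test of 1 array against 3 cannot go below p = 0.25. The median log2 difference of the members, KO minus wild type, was -0.048, beside -0.00014 for all kept genes, and 31 members had a negative mean log2 difference and 15 a positive one, where 50.1% of all kept genes had a negative one. The count of negative ones was 26 after quantile normalization and 26 after median centring, 24 without KO3, and 18 with the arrays paired by Xist level as a block. The differences ran from -0.66 (Nek2) to 0.57 (Tacc3).

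By the brightest probe set of each gene, the members lay close to the wild-type array. In 44 of 46 the mean difference was under 0.5 log2 units, where 83.8% of all kept genes had so small a difference. Only Nek2 was at least 2-fold from wild type in any KO array on the log2(signal + pseudocount) scale, where 12.8% of all kept genes were. Among the 5815 genes between the dimmest and the brightest member in mean signal, these shares were 85.5% and 10.8%. Other probe sets, above background in all 4 arrays, were at least 2-fold from wild type for more members. Those of Ccna2, Prc1, Hmmr, Plk4 and Tpx2 were so far below it in KO3. In KO2, 1 of Kif2c was so far below it and 1 of Nusap1 above it. The error of a member's difference by its brightest probe set was large, with a median SE of 0.33. The 95% interval lay within 1 log2 unit of 0 for 27 members, where it did so for 3172 of all 7436 kept genes. By that probe set, a 2-fold difference lay outside the interval for those 27 members. It lay inside the interval in at least 1 direction for the other 19.

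The wild-type array lay above every KO array for 12 members, where 20.6% of all kept genes did so, and below every KO array for 7, where 23.2% did. As a share of the 46 members these are 26.1% and 15.2%. With the brightest probe set, the members above were Top2a, Ccna2, Ccnb2, Bub1b, Bub3, Plk4, Cenpf, Nusap1, Tpx2, Nek2, Cdca3 and Prc1, and those below were Cdc20, Cenpe, Kif23, Cdc25b, Anln, Ncaph and Tacc3. By another probe set above background in all arrays, wild type did not lie above every KO array for Bub3, Plk4, Nusap1, Tpx2 and Cdca3. Nor did it lie below every KO array by another such probe set for Cdc20, Ncaph and Tacc3. For the other 27 the wild-type value fell inside the range of the KO arrays.

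**Figure D1:**
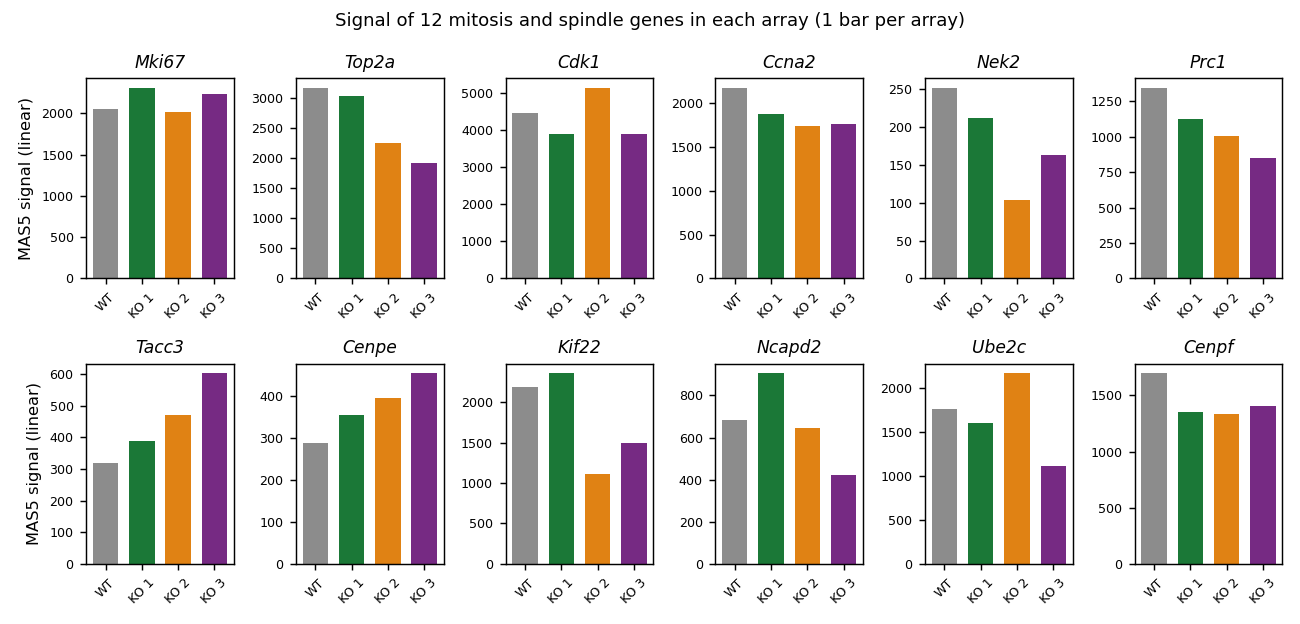
MAS5 signal on a linear axis (1 bar per array) of 12 members in the wild-type array and KO1, KO2 and KO3. Mki67 stayed between 2010.3 and 2305, Top2a was lowest in KO2 and KO3, and Tacc3 and Cenpe were lowest in the wild-type array.

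The proliferation markers did not share a direction. Mki67, whose product Ki-67 coats mitotic chromosomes, gave a signal of 2055 in wild type against 2305 (KO1), 2010.3 (KO2) and 2234 (KO3). The wild-type value lay inside the KO range of 2183 ± 154 (SD, n = 3), and the log2 difference was 0.084 (95% interval -0.63 to 0.80). Top2a, the topoisomerase that untangles sister chromatids, gave 3175 in wild type against 3033 (KO1), 2253 (KO2) and 1924 (KO3). It was lower in every KO array, with a difference of -0.066 log2 units in KO1 and a mean difference of -0.43 with an SE of 0.36. The other Top2a probe set was at background in all 4 arrays.

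CDK1 and its cyclins were measured at high signal. Cdk1, the kinase that drives entry into mitosis, gave 4464 in wild type against 3900.1 (KO1), 5149 (KO2) and 3901 (KO3). KO2 was above wild type and the other KO arrays below it, so the groups overlapped (log2 difference -0.061, 95% interval -0.84 to 0.71). Ccna2, which encodes cyclin A2 of S phase and G2, gave 2169 in wild type against 1875 (KO1), 1738 (KO2) and 1754 (KO3), and all 3 KO arrays were below wild type within a narrow range (1789 ± 75.2 (SD, n = 3), log2 difference -0.28 with an SE of 0.30). Ccnb2, a mitotic cyclin, gave 828 in wild type against 693 (KO1), 606 (KO2) and 752 (KO3), again with every KO array below wild type and a difference of -0.28. Cdc25b, a phosphatase that activates CDK1, gave 196 in wild type against 272 (KO1), 203 (KO2) and 322 (KO3). It was above wild type in every KO array, barely so in KO2, with a difference of 0.39 with an SE of 0.36. Its relative Cdc25c differed by 0.0020, with wild type inside the KO range.

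Among the 9 mitotic kinases and spindle assembly genes, 7 had a negative and 2 a positive mean log2 difference, though Aurka, Plk1 and Ckap2 were positive after quantile normalization and Plk1 and Ckap2 after median centring. Nek2, a kinase of centrosome separation, gave 251 in wild type against 211 (KO1), 104 (KO2) and 163 (KO3). Every KO array was below wild type, but they differed among themselves by 1.91-fold on the scale with the pseudocount added, as all fold distances between arrays are given, and the difference of -0.66 with an SE of 0.41 was the lowest of the members. Plk4, the kinase of centriole duplication, gave 774 in wild type against 643 (KO1), 697 (KO2) and 515 (KO3) with its brightest probe set, below wild type in every KO array and lowest in KO3. The other Plk4 probe sets differed by -0.34 and -0.12, the first above wild type in KO1 (0.13) and the second in KO3 (0.033). Tacc3, which stabilises the spindle fibres attached to kinetochores, gave 319 in wild type against 389 (KO1), 469.9 (KO2) and 602 (KO3). All KO arrays were above wild type (487 ± 107 (SD, n = 3), log2 difference 0.57 with an SE of 0.35, 95% interval -0.26 to 1.39). Its other 2 probe sets differed by 0.40 and -0.0087, so size and direction depended on the probe set.

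Aurka, the Aurora kinase of the centrosome, differed by -0.037 and Plk1, the Polo-like kinase of mitotic entry, by -0.013, with wild type inside the KO range for both. Tpx2, which activates Aurora A on the spindle, differed by -0.33, and its value in KO1 was -0.038 from wild type. The other Tpx2 probe set differed by -0.57, with KO1 above wild type (0.23). Nusap1, a microtubule bundler, gave 2352 in wild type against 2131 (KO1), 1771 (KO2) and 1849 (KO3), below wild type in every KO array. Its other probe set ran the opposite way, at 76.2 in wild type against 92.4 (KO1), 189 (KO2) and 111 (KO3). Hmmr, a spindle assembly factor, gave 1384 in wild type against 1367 (KO1), 1605 (KO2) and 1462 (KO3) with its brightest probe set, a difference of 0.090 with the groups overlapping. The other 3 Hmmr probe sets differed by -0.50, -0.72 and -0.14. Ckap2, a microtubule nucleator, was above wild type in KO1 and KO2 and below it in KO3.

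All 5 spindle checkpoint genes had a negative mean log2 difference with the brightest probe set, from -0.32 to -0.018, where 50.1% of all kept genes had a negative one. None of them passed the test. The difference of Ttk was positive after quantile normalization or median centring. With the mean of all probe sets, some not above background in every array, Bub1 (0.19) and Bub3 (0.12) were positive. With the arrays paired by Xist level as a block, Bub1 (0.078) and Ttk (0.21) were positive. Bub1b, which encodes the checkpoint protein BUBR1, gave 638 in wild type against 619 (KO1), 515 (KO2) and 407 (KO3). KO1 was close to wild type and KO3 the lowest (log2 difference -0.32 with an SE of 0.35). Bub3, the partner of BUB1 and BUBR1, gave 3120.4 in wild type against 2637 (KO1), 2405 (KO2) and 2645 (KO3) with its brightest probe set, where all KO arrays were below wild type. The other Bub3 probe set above background in all 4 arrays differed by 0.035. Mad2l1, the MAD2 subunit of the checkpoint complex, gave 2007 in wild type against 1897 (KO1), 1865 (KO2) and 2059 (KO3), a spread in which wild type lay inside the KO range (95% interval -0.76 to 0.66). Bub1 and the kinase gene Ttk differed by -0.040 and -0.018.

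The anaphase-promoting complex and its partners had no shared direction. Ube2c, the ubiquitin-conjugating enzyme of the complex, gave 1755 in wild type against 1594 (KO1), 2164 (KO2) and 1114 (KO3). KO2 and KO3 lay on opposite sides of wild type and 1.93-fold apart. Cdc20, the activator of the complex in mitosis, gave 1452 in wild type against 2032 (KO1), 1584 (KO2) and 1479 (KO3), above wild type in every KO array (log2 difference 0.21 with an SE of 0.33), while its next probe set differed by -0.21. Cdca3, a mitotic entry factor, gave 2107 in wild type against 2005 (KO1), 1849 (KO2) and 1646 (KO3), below wild type in every KO array with a mean difference of -0.20. The other Cdca3 probe set above background in all arrays was above wild type in KO3 (0.31). Pttg1, the securin that restrains sister chromatid separation until anaphase, was below wild type in KO1 and KO2 and 0.50 above it in KO3.

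In the chromosomal passenger complex, which corrects faulty spindle attachments, no member had wild type outside the KO range with its brightest probe set. Aurkb, its kinase, gave 316 in wild type against 348 (KO1), 245 (KO2) and 247 (KO3). KO1 was above wild type and KO2 and KO3 below it. The other Aurkb probe set gave 159 in wild type against 148 (KO1), 91.2 (KO2) and 122 (KO3), below wild type in every KO array. Birc5, which encodes survivin, gave 1163 in wild type against 1281 (KO1), 1295 (KO2) and 926 (KO3), lower than wild type only in KO3. Incenp, the scaffold of the complex, gave 512 in wild type against 626 (KO1), 464 (KO2) and 662 (KO3) with its brightest probe set, a difference of 0.17, and -0.33 with the other that was above background everywhere.

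The 3 centromere genes pointed in different directions. Cenpe, the kinesin motor of the kinetochore, gave 287 in wild type against 355 (KO1), 394 (KO2) and 453 (KO3). Every KO array was above wild type (401 ± 49.4 (SD, n = 3), log2 difference 0.46 with an SE of 0.32), and Cenpe had 1 probe set, so no other probe set bears on it. Cenpf, a kinetochore protein of G2 and mitosis, gave 1697 in wild type against 1356 (KO1), 1336 (KO2) and 1402 (KO3). The KO arrays lay within 1.05-fold of each other and below wild type (log2 difference -0.31 with an SE of 0.30), the smallest spread among the members. The other Cenpf probe set was below wild type in every KO array as well, with a mean difference of -0.62. Cenpa, the histone of centromeric chromatin, gave 1778 in wild type against 1993 (KO1), 2045 (KO2) and 1559.8 (KO3), with wild type inside the KO range.

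Of the 6 kinesins, 4 had a negative mean log2 difference, and in each of these KO1 was slightly above it. Kif22, a motor on chromosome arms, gave 2194 in wild type against 2357 (KO1), 1117 (KO2) and 1498 (KO3). KO1 and KO2 were 2.10-fold apart, so the mean difference of -0.47 with an SE of 0.44 sat within the spread of the KO arrays. Its other probe sets differed by -0.50 and 0.11. Kif4, a motor that works with condensin and at the spindle midzone, gave 595 in wild type against 602 (KO1), 426 (KO2) and 316 (KO3), lowest in KO3. Kif11, the motor that pushes spindle poles apart, gave 692 in wild type against 727 (KO1), 586 (KO2) and 424 (KO3), in the same order of arrays. Kif2c, a depolymerase of kinetochore microtubules, differed by -0.25 with its brightest probe set. Another Kif2c probe set gave 530.4 in wild type against 330.2 (KO1), 235 (KO2) and 311 (KO3), lower in every KO array with a mean difference of -0.84. It was the only member probe set with an unadjusted p under 0.05 when each of 12228 probe sets was fitted on its own (307 of them, 0 called in limma; adjusted p = 0.999 for this probe set). Kif20a differed by 0.065 and Kif23, a motor of the central spindle, by 0.19, the latter above wild type in all KO arrays.

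Cytokinesis genes, which act on the cleavage furrow and midzone, held Prc1 with every KO array below wild type. Prc1, the midzone microtubule bundler, gave 1343 in wild type against 1124 (KO1), 1005 (KO2) and 848 (KO3) (log2 difference -0.44 with an SE of 0.32, 95% interval -1.20 to 0.32). Its other probe set showed the same order of arrays, at 1195 in wild type against 1037 (KO1), 617 (KO2) and 412 (KO3). Ect2, which activates RhoA at the furrow, gave 821 in wild type against 925 (KO1), 543 (KO2) and 505 (KO3), above wild type in KO1 and below it in KO2 and KO3. Anln, the furrow scaffold anillin, gave 663 in wild type against 797 (KO1), 716 (KO2) and 702 (KO3), above wild type in every KO array by 0.15 on average. Racgap1, the partner of Kif23, differed by -0.11 with the groups overlapping.

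The 5 condensin genes had a median difference of 0.0063, with medians of 0.28 (KO1), -0.080 (KO2) and -0.070 (KO3). Ncapd2, a regulatory subunit of condensin I, gave 684 in wild type against 905 (KO1), 646 (KO2) and 422 (KO3). KO1 and KO3 were 2.11-fold apart, the widest spread among the members, with wild type between them. Ncaph, its kleisin subunit, gave 872 in wild type against 1153 (KO1), 1056 (KO2) and 972 (KO3) with its brightest probe set, above wild type in every KO array, while its other probe set gave 641 in wild type against 557 (KO1), 488 (KO2) and 342 (KO3), below it in every one. Ncapg, another subunit, gave 650.3 in wild type against 721 (KO1), 677 (KO2) and 619 (KO3), and its other probe set differed by 0.048. The ATPase genes Smc2 and Smc4 differed by -0.046 and 0.0063. The other Smc4 probe sets differed by -0.45 and -0.25, both with every KO array below wild type.

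**Figure D2:**
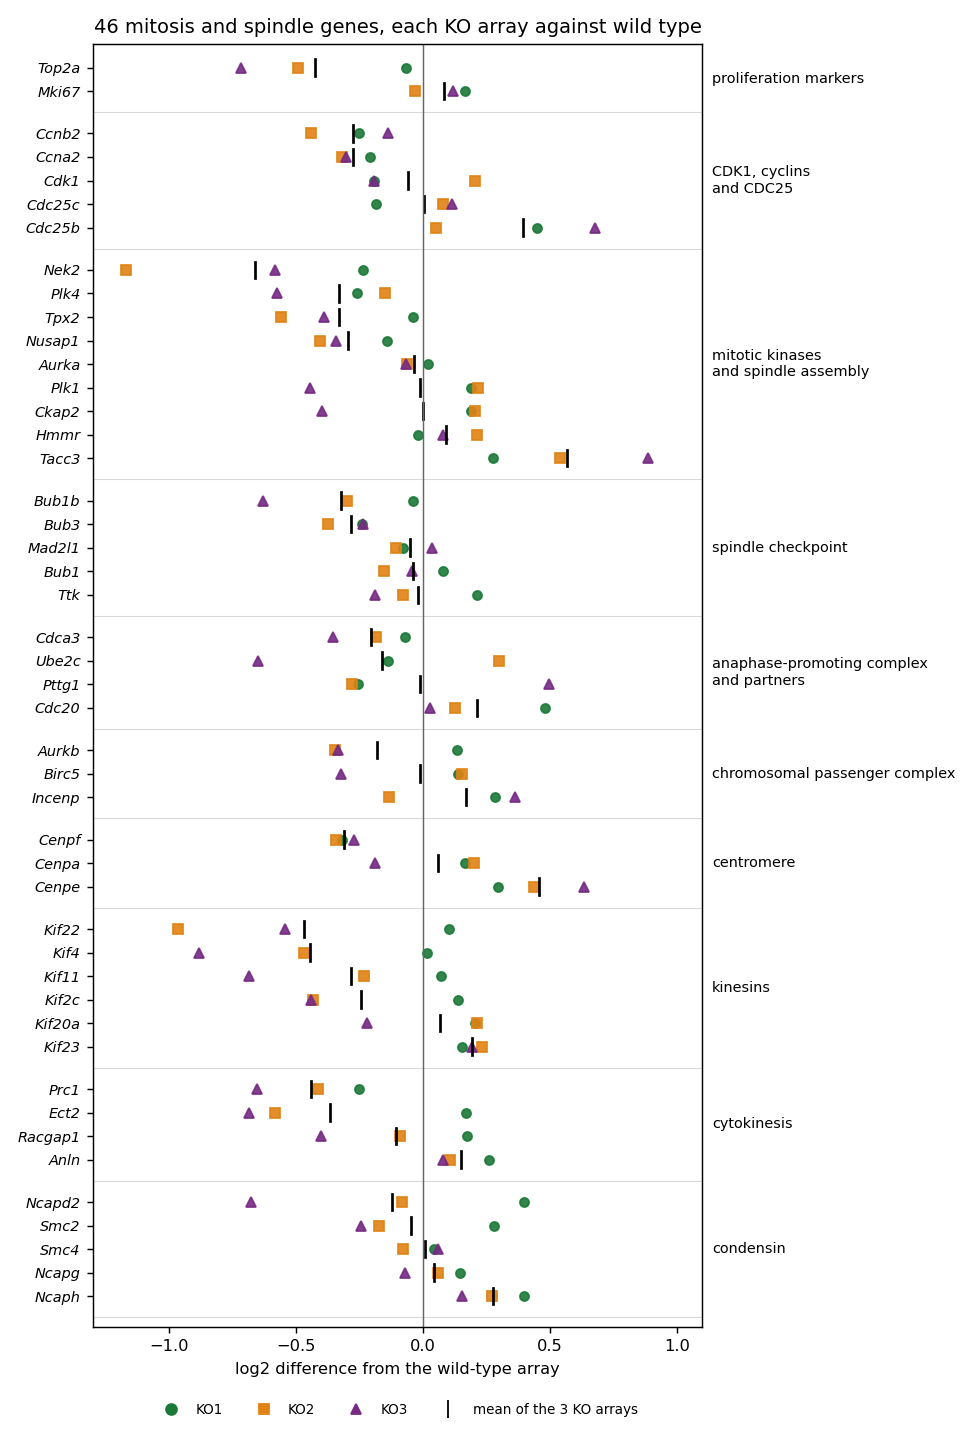
Log2 difference from the wild-type array (x axis) of the 46 measured members (rows, grouped by role), with 1 symbol per KO array and a bar at the mean of the 3. Differences ran from -1.17 to 0.89, and in most rows KO1 lay to the right of KO3.

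The members' median was not the same in the 3 KO arrays, though their spread over these arrays was not wide. The median SD over the KO arrays was 0.23 for members, 0.27 for all kept genes and 0.26 for the 5815 genes of like brightness. Their median log2 difference from wild type was 0.090 (KO1), -0.10 (KO2) and -0.24 (KO3), beside 0.024, 0.022 and -0.016 for all kept genes. In KO1, 18 of 46 members (39.1%) were below wild type, where 46.5% of all kept genes were. The count was 29 (63.0%) in KO2, where 47.9% of all kept genes were below, and 32 (69.6%) in KO3, where 51.3% were. Between KO arrays, 33 members were lower in KO2 than in KO1, where 50.5% of all kept genes were, and 32 were lower in KO3 than in KO1, where 53.3% were, with a median of -0.30. KO3 was below KO2 for 27 members, where 54.4% of all kept genes were lower. Members share the arrays and are not replicates, and these counts have no test.

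The median for KO3 stayed below 0 under other scalings, at -0.21 after quantile normalization and -0.19 after median centring, beside 0.044 and 0.032 for all genes. KO3 also had the highest beta-actin 3'/5' ratio, the highest background and, with KO2, the low Xist signal. Map2 was 1766 in wild type against 1447 (KO1), 784 (KO2) and 593 (KO3). Of the other neuronal markers, Dcx, Tubb3, Nefl, Snap25 and Syt1 were higher in KO3 than in wild type, and Stmn2 and Rbfox3 were lower. Most of these were dim, and Tubb3 in KO3 (92.0) lay near that array's background of 87.8. Snap25 (80.1), Syt1 (69.0), Stmn2 (16.6) and Rbfox3 (5.18) lay below that background in KO3. For Snap25 and Syt1, the higher signal there cannot be told apart from the higher background. S100b (1726 against 537), Olig2 (4278 against 2694) and Nes (1719 against 846) were lower in KO3 than in wild type, and Fabp7 (16547 against 34007) was higher. Sox2, Aqp4, Cspg4, Sox10 (106 against 200) and Mbp were also higher in KO3. Of the kept markers, 7 of 10 for stem cells, 2 of 3 for astrocytes and 1 of 4 for the oligodendrocyte lineage were lower in KO3. Of all kept genes, 51.3% were lower. The part of these in the result was not tested. Between wild type and KO1, which shared high Xist, the members' median was 0.090, with the KO array the higher for 28 of 46, where 53.5% of all kept genes were higher.

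**Figure D3:**
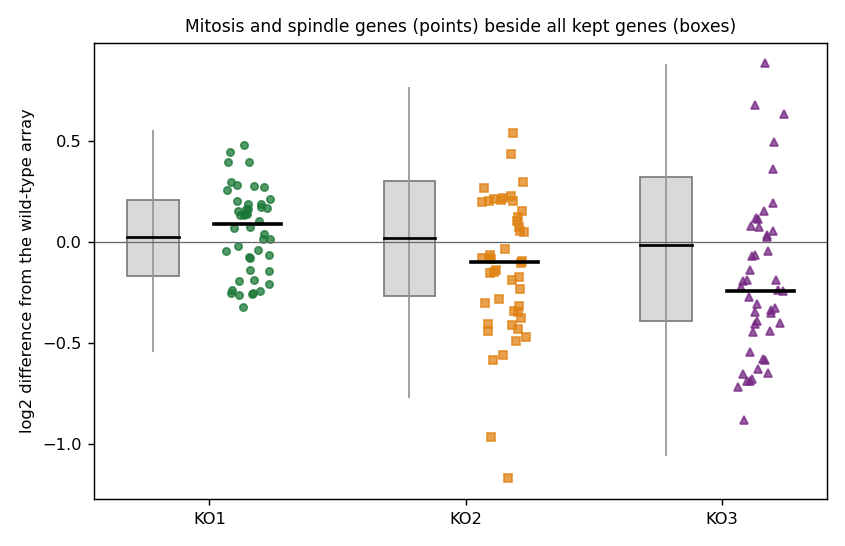
Log2 difference from the wild-type array (y axis) in each KO array, with 1 point per member and a black line at their median. Grey boxes give the middle 50% of all 7436 kept genes, with whiskers from the 5th to the 95th percentile and a line at the median. The members' median is highest in KO1 (0.090) and lowest in KO3 (-0.24).

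Probe sets of the same gene often disagreed, most of all in KO3. For 21 members with at least 2 probe sets above background in all arrays, the mean difference had opposite signs between probe sets in 9, of which Hmmr, Kif22, Ncaph, Nusap1 and Tacc3 were over 0.5 log2 units apart. The median distance between a gene's lowest and highest probe set was 0.34 (KO1), 0.33 (KO2) and 0.67 (KO3). For all 2903 such genes on the array it was 0.29, 0.49 and 0.63, so a wide distance in KO3 was not limited to the members. Ccna2 is an example, since its other probe set gave 2702 in wild type against 2102 (KO1), 1843 (KO2) and 936 (KO3), with a KO3 value far below the others, while the brightest probe set had no such gap.

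**Figure D4:**
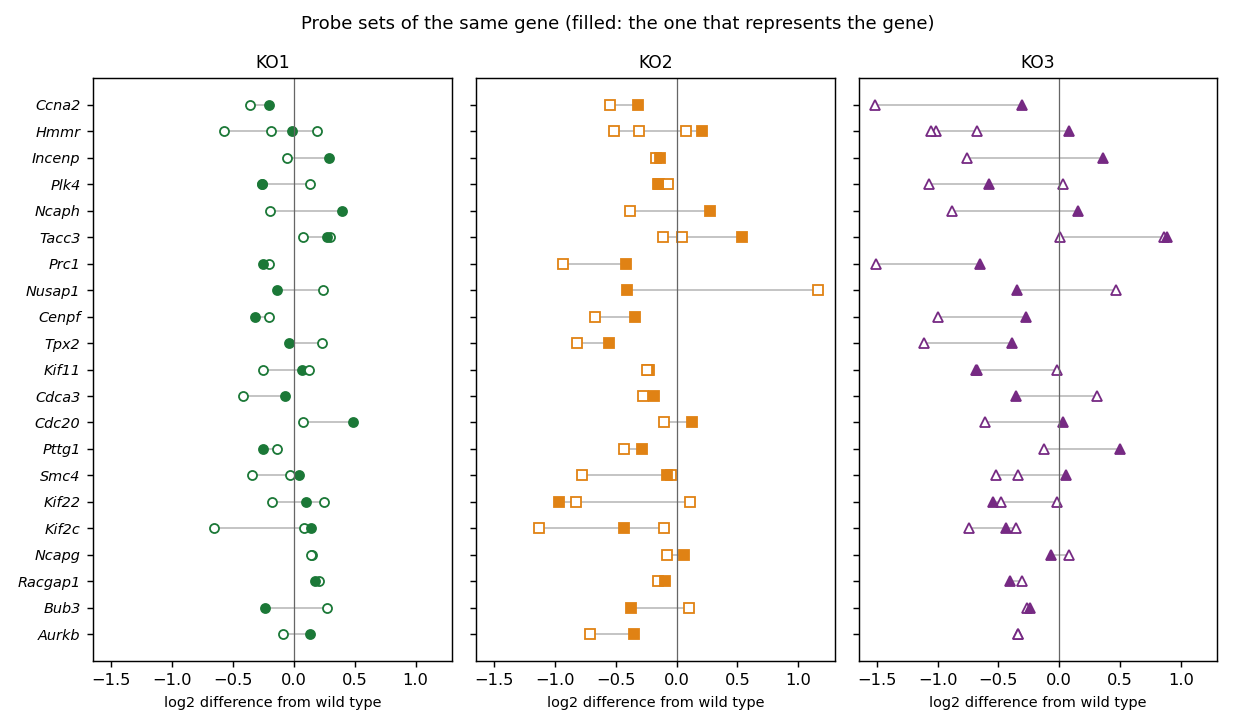
Log2 difference from the wild-type array (x axis) for each probe set of 21 members with at least 2 probe sets above background, 1 panel per KO array, with a filled symbol for the brightest probe set. The lines joining probe sets of a gene are longer in KO3 by their median, at 0.67.

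The members' promoters were also set beside these values. The 27 members with CCAAT and TTTGAA or TTTAAA in a promoter had a median difference of -0.27 in KO3, with 22 below wild type. The 12 members whose promoters lack that combination had a median of -0.0033, with 6 below, where 51.3% of all kept genes were. In KO1 the medians were 0.10 and 0.11, and in KO2, in the opposite order to KO3, -0.082 and -0.13. The difference between these sets was not tested.

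A further list of 121 genes of mitosis and the spindle, none of them a member, had 89 measured and 86 kept genes. None was called in either direction by limma at an adjusted p under 0.05, with 1 at an unadjusted p under 0.05, and the median difference was -0.072, with 47 negative and 39 positive. Over all kept genes, 2.26% had an unadjusted p under 0.05 and 50.1% a negative difference, shares near those of this list. The 3 with the lowest moderated t were Ncapg2, a subunit of condensin II, Mastl, the Greatwall kinase that protects CDK1 phosphorylations, and Wee1, the kinase that restrains CDK1. Ncapg2 gave 1034 in wild type against 688 (KO1), 484 (KO2) and 558 (KO3), lower in every KO array (log2 difference -0.84 with an SE of 0.33, limma adjusted p = 0.99997). Mastl and Wee1 differed by -0.64 and -0.51. The 3 with the highest were Haspin, the histone kinase of mitotic chromatin, Cenpc1, which links centromeric chromatin to the kinetochore, and Clasp2, a microtubule stabiliser, at 0.72, 0.63 and 0.69. All 3 were above wild type in every KO array.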

How the data were processed

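Gene expression was measured in 4 samples, 1 array each. The authors deposited a linear MAS5 intensity for every probe set. The submitters' processing notes name MAS5, with a version and target value not given in the sources used here. The mean of each array without the 2% of values at either end was 500.2 to 500.25. Probe sets took their gene from the platform annotation, with symbols updated from RefSeq (GRCm38.p6) by gene identifier; 20393 had 1 symbol, 691 several and 1606 none. All differences are on a log2(signal + 14.4) scale, with a pseudocount of 0.1 times the median of all values, which understates changes of dim genes. For each of 12393 genes the probe set of highest mean stood for the gene, and the 40% with the lowest mean were left out.

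The test was limma's (lmFit, eBayes; limma 3.58.1, R 4.3.3) of KO against wild type, two-sided and Benjamini-Hochberg adjusted over 7436 genes at a threshold of 0.05. The spread came from the 3 KO arrays and was taken to hold for the wild-type array too (2 residual and 5.23 prior degrees of freedom), and the number of arrays limits the precision. The script was tested on simulated data. The members, the gene lists and the pairs of arrays were chosen with earlier results of these data known. Signals were given for the members with the largest moderated t in each role (up to 3), the 5 with the largest SD over KO arrays, those whose probe sets disagree, and Mki67, Top2a and Cdk1; other members are given by their difference. As alternatives, the scaling, pseudocount, filter, probe set rule and eBayes settings were varied, each KO array was left out, and arrays paired by Xist signal (wild type with KO1, KO2 with KO3) were blocked.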

Additional observations from a re-analysis of the deposited data

Results flagged for a closer look

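The array's 3 control probe sets for 18S ribosomal RNA, which no comparison above uses, were near 0 in wild type (median signal 4.64) and KO1 (7.24) and far higher in KO2 (946) and KO3 (2823). They stand here because a signal outside the genes tested lay far above that of the control array. The split follows that of Xist.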

How the results depend on the processing

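No member was called in limma under any alternative run. The count over all genes was 0 in each, except that leaving out KO1 called 2 genes, neither a member (Eif2s3y, of the Y chromosome, and Tmem87a), for a range of 0 to 2 over the arrays left out; genes at an unadjusted p under 0.05 numbered 63 to 486, and members among them 0. The members' median difference was -0.048 as reported, -0.12 to -0.021 with 1 KO array left out, and 0.090 with array pairs as a block, a fit in which the difference equals KO1 minus wild type. With that block the median of the other mitosis genes was 0.037; the cause was not tested. At the stricter filter 42 of 46 members were in the fit. The sign of uncalled differences turned as follows, and those of the remaining 18 members kept theirs under all alternatives. With the pair as a block these were Aurka (0.018), Aurkb (0.14), Bub1 (0.078), Birc5 (0.14), Plk1 (0.19), Kif11 (0.070), Kif22 (0.10), Kif2c (0.14), Kif4 (0.017), Hmmr (-0.018), Ttk (0.21), Cdc25c (-0.19), Racgap1 (0.17), Ect2 (0.17), Ncapd2 (0.40), Smc2 (0.28) and Ckap2 (0.19). With the mean of all probe sets of a gene they were Bub1 (0.19), Bub3 (0.12), Nusap1 (0.16), Hmmr (-0.32), Ncaph (-0.11), Smc4 (-0.23), Pttg1 (0.012) and Incenp (-0.29). Quantile normalization turned Aurka (0.0039), Birc5 (0.015), Plk1 (0.046), Ttk (0.024) and Ckap2 (0.016), and median centring turned Birc5 (0.010), Plk1 (0.0080), Ttk (0.0034), Pttg1 (0.0076) and Ckap2 (0.019). Leaving out 1 KO array gave both signs for Birc5 (-0.093 to 0.15), Bub1 (-0.10 to 0.017), Cdc25c (-0.054 to 0.10), Cdk1 (-0.19 to 0.0056), Cenpa (-0.012 to 0.18), Ckap2 (-0.10 to 0.20), Kif20a (-0.0090 to 0.21), Ncapd2 (-0.38 to 0.16), Ncapg (-0.0062 to 0.10), Plk1 (-0.13 to 0.20), Pttg1 (-0.27 to 0.12), Racgap1 (-0.25 to 0.040), Smc2 (-0.21 to 0.053), Smc4 (-0.019 to 0.049), Ttk (-0.13 to 0.067) and Ube2c (-0.39 to 0.081). Other filters, pseudocounts and eBayes settings turned none. The labels give the groups no shared replicate number, so no fit paired by number was made. The number of arrays and, for dim probe sets, the distance to background limit every value.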

Other observations

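DNA replication genes, which act in S phase and are not members, were also highest in KO1 and lowest in KO3 by their median. Of 28 measured, 27 were kept and none was called by limma (0 at an unadjusted p under 0.05). Their median log2 difference from wild type was 0.17 (KO1), -0.16 (KO2) and -0.35 (KO3), with 23 above wild type in KO1, where 53.5% of all kept genes were, and 22 below it in KO3, where 51.3% were.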
